A study of Mus musculus with 11 samples.

Results

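The mouse Serpina3 genes form a cluster of protease inhibitor genes on chromosome 12. They were taken as the rows of each count table whose Ensembl identifier carries the symbol Serpina3c, Serpina3f, Serpina3g, Serpina3i, Serpina3k, Serpina3m or Serpina3n in the GRCm38 annotation. These are 7 of 52636 genes listed and 7 of 14 Serpina3 rows, and 5 of the 7 (Serpina3f, Serpina3g, Serpina3i, Serpina3m and Serpina3n) passed the filter on low counts. Serpins are suicide inhibitors: a protease cuts an exposed reactive loop and is then trapped by the refolding serpin. Humans have a lone SERPINA3 gene, which encodes antichymotrypsin, whereas the mouse locus has expanded into paralogs with differing loops. Serpina3g (also called Spi2A) is known from hematopoietic cells as an inhibitor of cathepsins, Serpina3n as an inhibitor of granzyme B that is secreted in inflammation, Serpina3k (contrapsin) as an abundant trypsin inhibitor of adult hepatocytes, and Serpina3c as a kallikrein-binding protein.

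RNA was sequenced from untreated whole fetal livers at E15.5, an age at which the organ holds hepatoblasts together with blood-forming cells. There were 3 WT, 2 Tnfr1 KO, 3 Casp8 Mlkl dKO and 3 Casp8 Tnfr1 dKO livers, all on C57BL/6N. In the mutant embryos the alleles were deleted throughout the body. Caspase-8 restrains necroptosis, MLKL carries it out and TNFR1 is a receptor for TNF, so Casp8 Mlkl dKO livers lack Caspase-8 without necroptosis and Tnfr1 KO livers lack TNFR1 alone. Casp8 Tnfr1 dKO and Casp8 Mlkl dKO livers differ in both TNFR1 and MLKL, whose parts cannot be told apart in that comparison. In bulk RNA, a change in the number of cells of a type and a change in the RNA per cell cannot be told apart. Nothing in the sources places the livers of a genotype in separate litters, so p-values measure the spread between these livers.

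Totals were 23129212 to 35819339 counts per liver. Casp8 levels were 7.82 to 21.9 CPM (counts scaled to a common library size) in the 6 livers labelled Casp8-deficient and 27.7 to 33.9 CPM in the other 5, and Mlkl was 0.730 to 1.22 CPM in Casp8 Mlkl dKO and at least 3.68 CPM elsewhere. Tnfrsf1a, the TNFR1 gene, was 49.8 and 50.5 CPM in Tnfr1 KO and 47.1 to 53.4 CPM in WT, so counts over the whole gene do not check that label. A pair of livers stood apart. Casp8 Tnfr1 dKO replicate 3 correlated with the other livers at r of 0.840 to 0.891 (all other pairs at least 0.949). It lacked Y-linked transcripts (1 count in all, against at least 4091 elsewhere) and held 59817 counts of Xist, against at most 15 elsewhere. Its striated muscle markers summed to 1812 CPM against at most 49.9 CPM elsewhere, and its hemoglobin genes to 171670 CPM against 34642 to 61022 CPM. In Casp8 Mlkl dKO replicate 1 each of the 15 hepatocyte markers was higher than in any other liver, with a sum of 245203 CPM against 57176 to 109683 CPM. Values without these 2 livers are given beside the results that they move most.

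The upstream windows are shown because the 7 genes split into groups that behaved differently and these groups can be compared with the sequence in front of each gene. RefSeq windows (GRCm38.p6) were on hand for 5 of the 7 genes, and Serpina3k and Serpina3m had none. The 250 bases before each start follow, 5′ to 3′ on the strand of the gene, with capitals marking matches to the STAT-type motif TTCNNNGAA and to the NF-kB consensus.
Serpina3f (chr12:104214294-104214543, plus strand): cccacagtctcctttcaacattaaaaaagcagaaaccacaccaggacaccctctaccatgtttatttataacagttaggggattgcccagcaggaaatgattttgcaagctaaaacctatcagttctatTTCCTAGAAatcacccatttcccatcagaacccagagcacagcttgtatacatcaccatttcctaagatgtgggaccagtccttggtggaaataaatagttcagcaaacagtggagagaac
Serpina3g (chr12:104235897-104236146, plus strand): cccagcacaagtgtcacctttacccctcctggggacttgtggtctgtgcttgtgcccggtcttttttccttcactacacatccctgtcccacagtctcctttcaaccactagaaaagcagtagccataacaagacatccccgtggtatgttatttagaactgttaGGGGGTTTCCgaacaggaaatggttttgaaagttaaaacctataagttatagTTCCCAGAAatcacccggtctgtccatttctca
Serpina3i (chr12:104262872-104263121, plus strand): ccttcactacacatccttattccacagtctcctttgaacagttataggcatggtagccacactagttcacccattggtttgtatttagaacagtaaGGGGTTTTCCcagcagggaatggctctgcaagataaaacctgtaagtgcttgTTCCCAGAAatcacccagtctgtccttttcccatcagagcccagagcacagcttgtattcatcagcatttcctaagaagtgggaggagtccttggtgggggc
Serpina3c (chr12:104153873-104154122, minus strand): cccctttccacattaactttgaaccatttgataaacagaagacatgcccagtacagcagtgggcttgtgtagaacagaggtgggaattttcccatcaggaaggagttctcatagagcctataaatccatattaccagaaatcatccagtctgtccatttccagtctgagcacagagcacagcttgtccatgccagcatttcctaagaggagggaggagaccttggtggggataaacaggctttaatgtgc
Serpina3n (chr12:104406458-104406707, plus strand): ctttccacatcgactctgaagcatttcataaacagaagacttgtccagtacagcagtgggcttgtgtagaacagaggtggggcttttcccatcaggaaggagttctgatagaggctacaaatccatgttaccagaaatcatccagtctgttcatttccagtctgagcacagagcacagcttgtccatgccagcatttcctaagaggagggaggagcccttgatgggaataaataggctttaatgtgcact

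The windows of Serpina3c and Serpina3n were the most alike, with 92.7% of 247 aligned bases identical. Those of Serpina3f, Serpina3g and Serpina3i shared 80.4 to 82.6% of 161 to 219 aligned bases with one another, and that of Serpina3i shared 78.7% of 225 with Serpina3c and 77.5% of 222 with Serpina3n. Each of these last 3 windows held TTCNNNGAA, as TTCCTAGAA in Serpina3f and TTCCCAGAA in Serpina3g and Serpina3i, and 7.02% of 32851 RefSeq windows of this length hold that motif. Aligned to the Serpina3i match and counted from its 5′ end, Serpina3f had C5T, whereas Serpina3c and Serpina3n had C3A and so fell outside the motif. The NF-kB consensus, present in 7.25% of all windows, was matched in Serpina3g by GGGGGTTTCC and in Serpina3i by GGGGTTTTCC. Of the other motifs searched on both strands, a pair of GAAA with 2 bases between (interferon-stimulated response element, 2.98% of windows) was in none of the 5, TTGCNNAA (C/EBP type, 9.56%) was in Serpina3f, and TATAAA (12.4%) was in Serpina3c and Serpina3f. No match overlapped another. A second RefSeq start of Serpina3f has a window that holds the same STAT-type match.

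**Figure D1:**
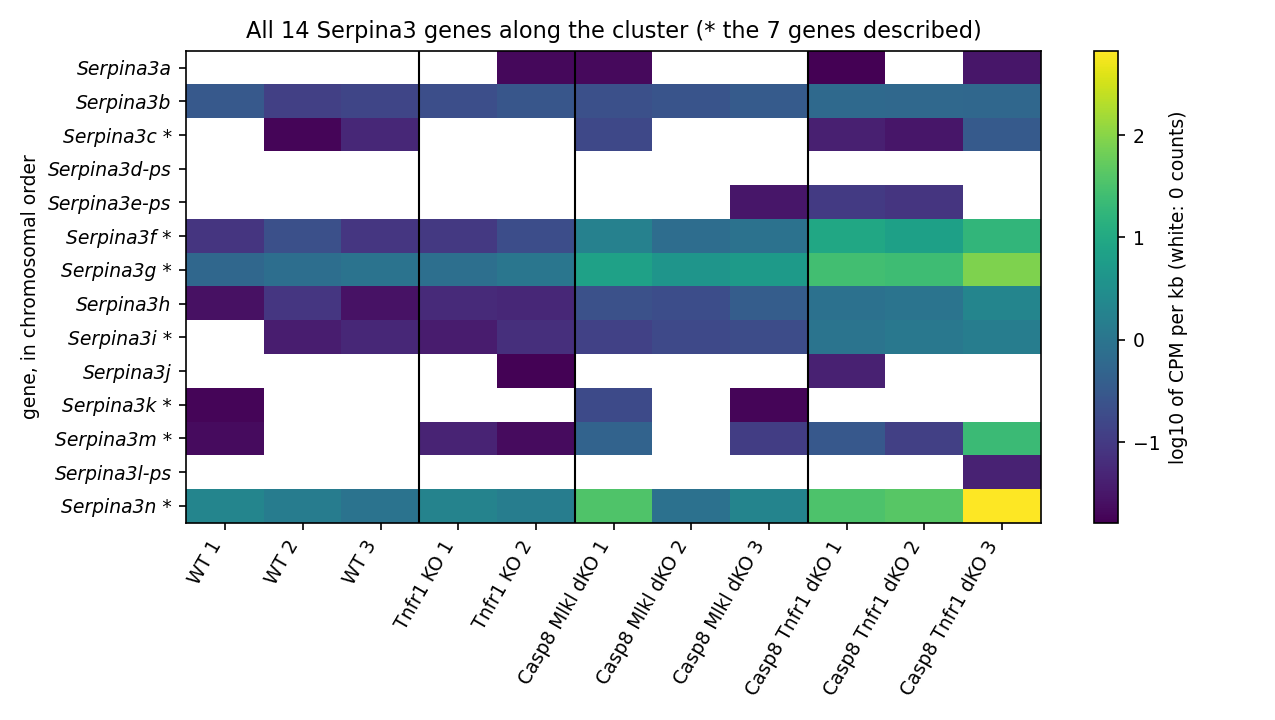
Level of all 14 Serpina3 genes in chromosomal order (rows) in the 11 livers (columns), as the log10 of CPM per kb, with white for 0 counts and asterisks on the 7 genes described. Serpina3f, Serpina3g and the stretch up to Serpina3i brighten from WT to Casp8 Mlkl dKO to Casp8 Tnfr1 dKO, whereas Serpina3n is brightest in Casp8 Tnfr1 dKO replicate 3 and is also bright in Casp8 Mlkl dKO replicate 1.

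Per length, Serpina3n was the most abundant of the 7 in WT livers at 1.46 ± 0.54 CPM per kb (mean ± SD, n = 3). Serpina3g followed at 0.754 ± 0.172 CPM per kb, and in 1 of the 3 WT livers the levels of both were nearly equal (0.936 and 0.919 CPM per kb). Serpina3f was at 0.130 ± 0.078 CPM per kb, and the other 4 genes were each at or under 0.0306 CPM per kb on average, at 0 to 3 counts a liver. In Casp8 Tnfr1 dKO the means were 247 ± 362 CPM per kb for Serpina3n, 45.6 ± 33.8 for Serpina3g, 11.2 ± 5.6 for Serpina3f, 7.62 ± 12.8 for Serpina3m and 1.19 ± 0.24 for Serpina3i (n = 3). The SDs of Serpina3n and Serpina3m exceeded their means, since replicate 3 alone was far above its group.

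**Figure D2:**
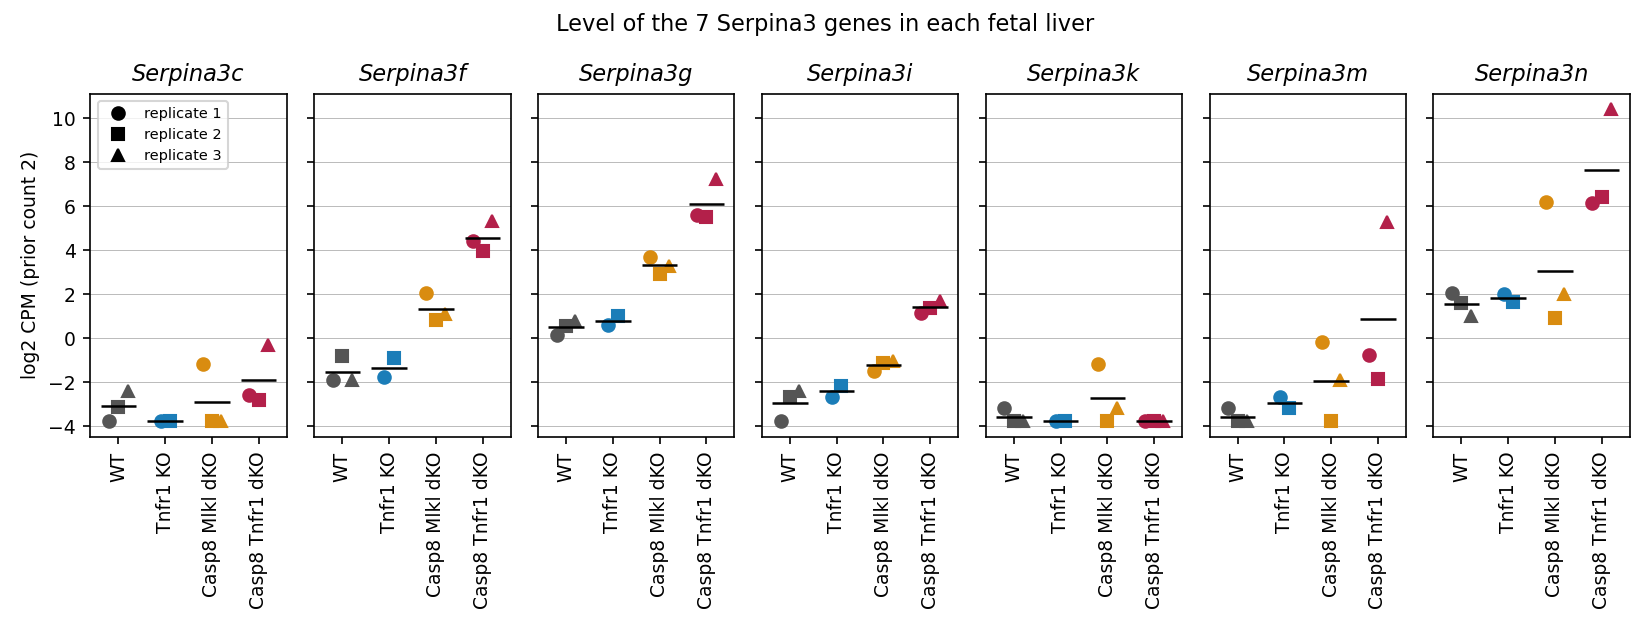
Level of each of the 7 genes per liver, as log2 CPM with a prior count of 2; symbols mark the replicate number, colors the genotype and black lines the group mean. Serpina3f, Serpina3g and Serpina3i form steps with no overlap from the Casp8-intact livers to Casp8 Mlkl dKO to Casp8 Tnfr1 dKO, whereas in Serpina3n the Casp8 Mlkl dKO livers spread from 1.80 to 72.7 CPM.

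Serpina3g, Serpina3f and Serpina3i rose in Casp8 Tnfr1 dKO against every other genotype. Serpina3g, the cathepsin inhibitor, had 1599, 1311 and 2676 counts in the Casp8 Tnfr1 dKO livers (48.8, 45.1 and 152 CPM). It had 318, 262 and 256 counts in Casp8 Mlkl dKO (12.9, 7.61 and 9.78 CPM), 27, 33 and 42 counts in WT (1.04, 1.38 and 1.66 CPM), and 52 and 51 counts in Tnfr1 KO (1.42 and 1.94 CPM). All Casp8 Tnfr1 dKO livers were thus above all Casp8 Mlkl dKO livers, and these in turn above all WT and Tnfr1 KO livers, which overlapped. Of all genes, 3.47% had every Casp8-deficient liver above every Casp8-intact liver. Every Casp8 Tnfr1 dKO liver was above every Casp8 Mlkl dKO liver in 9.61%. The share of genes with both steps was not counted. In edgeR's quasi-likelihood fit, with p adjusted by Benjamini-Hochberg over 17243 genes, the log2 fold change of Serpina3g was 5.91 ± 0.55 (SE) against WT (adjusted p = 0.000358), 5.61 ± 0.64 against Tnfr1 KO (adjusted p = 0.00207) and 3.02 ± 0.47 against Casp8 Mlkl dKO (adjusted p = 0.0138). Without Casp8 Tnfr1 dKO replicate 3 the values were 5.11, 4.81 and 2.22 and the calls held.

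Serpina3f, the neighbor of Serpina3g, was lower in level. It had 692, 457 and 702 counts in Casp8 Tnfr1 dKO (21.1, 15.7 and 40.0 CPM), 100, 58 and 54 in Casp8 Mlkl dKO (4.05, 1.69 and 2.06 CPM), 5, 12 and 5 in WT, and 8 and 12 in Tnfr1 KO. Again the Casp8 Tnfr1 dKO livers were highest, the Casp8 Mlkl dKO livers intermediate and the other 5 lowest, with overlap only between WT and Tnfr1 KO. The log2 fold change in Casp8 Tnfr1 dKO was 6.42 ± 0.61 against WT (adjusted p = 0.000388, edgeR), 6.26 ± 0.72 against Tnfr1 KO (adjusted p = 0.00207) and 3.30 ± 0.50 against Casp8 Mlkl dKO (adjusted p = 0.0116). They were 5.96, 5.81 and 2.84 without Casp8 Tnfr1 dKO replicate 3, all still called. Serpina3g exceeded Serpina3f per length in each of the 11 livers, by a ratio of 2.93 to 4.84 in Casp8 Tnfr1 dKO and of 3.49 to 10.7 in the others.

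Serpina3i, at the far end of this stretch, was scarce. It had 71, 73 and 56 counts in Casp8 Tnfr1 dKO (2.17, 2.51 and 3.19 CPM), 7, 13 and 11 in Casp8 Mlkl dKO, 0, 2 and 3 in WT, and 3 and 4 in Tnfr1 KO. The order of the genotypes was that of Serpina3g, without overlap between the 3 levels. The log2 fold change in Casp8 Tnfr1 dKO was 5.20 ± 0.63 against WT (adjusted p = 0.00158, edgeR), 4.47 ± 0.69 against Tnfr1 KO (adjusted p = 0.0104) and 2.84 ± 0.52 against Casp8 Mlkl dKO (adjusted p = 0.0279). The last of these calls held in 14 of 20 alternatives, and was lost without either Tnfr1 KO liver, without WT replicate 2, without Casp8 Mlkl dKO replicate 2 or 3, and in the fit of only the genotypes compared. Reads were counted where they mapped uniquely, and 9.82% of the 50-base stretches of Serpina3i also occur in the neighboring transcribed pseudogene Serpina3h, so the split of reads between these 2 is uncertain. Serpina3h itself had 40, 41 and 51 counts in Casp8 Tnfr1 dKO and 1 to 14 in the other livers. Stretches shared with any other Serpina3 gene made up 15.9% of Serpina3i and 10.6% of Serpina3f, and 8.89% of those of Serpina3g occur in Serpina3h alone.

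The Casp8 Tnfr1 dKO comparisons share the Casp8 Tnfr1 dKO livers and are not independent. In all, 4 of the 5 tested genes were higher against WT (5.1% of all genes tested were), 3 of 5 against Tnfr1 KO (2.05% of all) and 3 of 5 against Casp8 Mlkl dKO (1.54% of all), and 0 were lower (0.702, 0.122 and 0.116% of all). All 5 were above WT and above Tnfr1 KO in every Casp8 Tnfr1 dKO liver, as were 19.5 and 20.5% of all genes, and 3 of 5 were so against Casp8 Mlkl dKO, as were 9.61%. The calls against Tnfr1 KO rest on 2 livers: without replicate 1 none of the 5 was called and without replicate 2 only Serpina3f was. Against Casp8 Mlkl dKO none was called without Casp8 Mlkl dKO replicate 2 or replicate 3. Against all 8 other livers together, Serpina3f, Serpina3g and Serpina3i each gave p = 0.00606 when log2 CPM was permuted exactly over all 165 splits (two-sided), the smallest that 3 livers against 8 can give. Adjusted over all genes tested this was 0.0612, and 7.43% of genes had every Casp8 Tnfr1 dKO liver above the other 8.

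**Figure D3:**
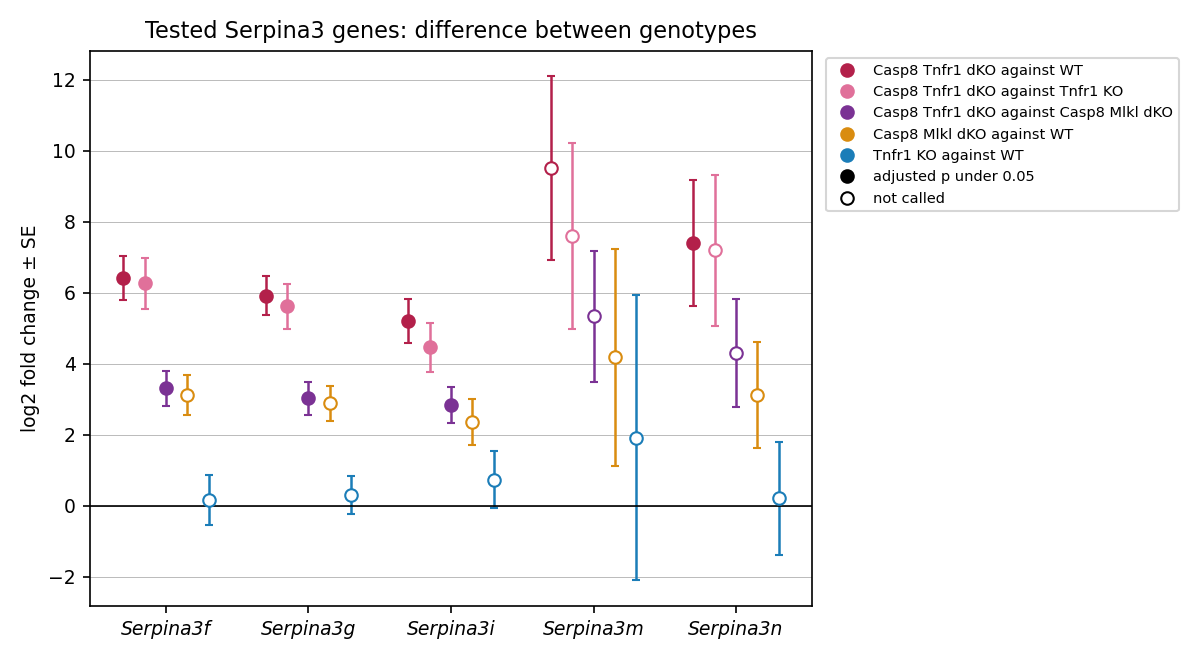
Log2 fold change (vertical axis, bars are SE of edgeR's fit over all 11 livers) of the 5 tested Serpina3 genes in the 5 comparisons, with filled symbols for an adjusted p under 0.05. Serpina3f, Serpina3g and Serpina3i are filled in each of the 3 Casp8 Tnfr1 dKO comparisons with an SE of at most 0.72, whereas Serpina3m and Serpina3n have an SE of 1.52 to 2.61 there and Serpina3n is filled against WT.

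The comparison of Casp8 Mlkl dKO with WT asks how the Serpina3 genes stand when Caspase-8 is lost and necroptosis is blocked. In it no member passed edgeR's quasi-likelihood test after adjustment, as 0.0058% of all genes did. The log2 fold change was 3.12 ± 0.57 for Serpina3f (adjusted p = 0.216), 2.89 ± 0.49 for Serpina3g (adjusted p = 0.168) and 2.36 ± 0.65 for Serpina3i (adjusted p = 0.728). These 3 genes had an unadjusted p under 0.05, and in each of them every Casp8 Mlkl dKO liver was above every WT liver, which held for 10.8% of all genes. DESeq2's Wald test called 2 of them, Serpina3f and Serpina3g, as it did 0.458% of all genes, and limma-voom called 0 (0.0058% of all). Without the 2 livers that stood apart edgeR called all 3, in a fit chosen after the data were seen. Adjusted p was 0.00167 for Serpina3f, 5.99e-06 for Serpina3g and 0.0393 for Serpina3i, with a log2 fold change of 2.51 to 2.67. In that fit 3.23% of all genes were called higher.

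Loss of TNFR1 alone gave no call. In Tnfr1 KO against WT, 0 of 5 members passed by edgeR or by limma-voom and 0 of the 3 to which DESeq2 gave an adjusted p, 0 had an unadjusted p under 0.05, and 0% of all genes were called. The log2 fold change was 0.15 ± 0.70 for Serpina3f, 0.30 ± 0.55 for Serpina3g, 0.73 ± 0.79 for Serpina3i, 0.21 ± 1.59 for Serpina3n and 1.92 ± 4.03 for Serpina3m. The SE of Serpina3m was the widest of these 5, followed by that of Serpina3n.

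Serpina3n reached the highest level of the cluster and differed from Serpina3f, Serpina3g and Serpina3i in which livers were high. It had 2328, 2530 and 24099 counts in Casp8 Tnfr1 dKO (71.0, 87.1 and 1373 CPM). It had 1793, 62 and 105 counts in Casp8 Mlkl dKO (72.7, 1.80 and 4.01 CPM), 108, 70 and 49 in WT (4.15, 2.93 and 1.93 CPM), and 143 and 80 in Tnfr1 KO (3.91 and 3.04 CPM). Replicate 1 of Casp8 Mlkl dKO was thus at the level of Casp8 Tnfr1 dKO replicate 1, whereas its 2 group mates overlapped with WT. Both livers with unusual Serpina3n levels for their genotype were those that stood apart by other genes.

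Serpina3n rose against WT, with a log2 fold change of 7.40 ± 1.78 (adjusted p = 0.0404, edgeR). Against Tnfr1 KO it was 7.19 ± 2.12 (adjusted p = 0.132) and against Casp8 Mlkl dKO 4.29 ± 1.52 (adjusted p = 0.229). The call against WT held in 11 of 19 alternatives. It was lost when any WT or Tnfr1 KO liver was left out (adjusted p = 0.0741 to 0.176), with the replicate block (0.0978), in the fit of only the genotypes compared (0.0618) and by limma-voom (0.0735), and it stayed without Casp8 Tnfr1 dKO replicate 3, at a log2 fold change of 4.72. Without both livers that stood apart the value was 4.73 against WT (adjusted p = 4.37e-09), 4.51 against Tnfr1 KO (adjusted p = 3.66e-08) and 4.82 against Casp8 Mlkl dKO (adjusted p = 3.42e-08). That fit was chosen after the data were seen and leaves out the very livers with unusual Serpina3n levels. Its small spread and p follow from that choice, so it cannot settle these calls. In Casp8 Mlkl dKO against WT the log2 fold change of 3.12 ± 1.49 (adjusted p = 0.875) became -0.06 when Casp8 Mlkl dKO replicate 1 was left out. A picture of the study's heatmap of differing genes in these same livers lists Serpina3n, so its direction here is not independent evidence. By the study's methods, heatmap genes met limits on fold change and on limma's adjusted p across all its comparisons. The main edgeR fit here called Serpina3n against WT only. The exact permutation test against all 8 other livers gave p = 0.0121 (0.0881 adjusted over all genes tested).

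Serpina3m was seen almost only in 1 liver. Casp8 Tnfr1 dKO replicate 3 had 677 counts (38.6 CPM), against 17 and 6 in its group mates, 20, 0 and 5 in Casp8 Mlkl dKO, 1, 0 and 0 in WT, and 3 and 1 in Tnfr1 KO. Replicates 1 and 2 of Casp8 Tnfr1 dKO therefore lay within the range of Casp8 Mlkl dKO. Against the 1 count in WT the pooled ratio was 664, with a 95% counting interval of 119 to 26245 that takes no account of the spread between livers. The log2 fold change against WT was 9.51 ± 2.60 (adjusted p = 0.0623, edgeR). In the exact permutation test of 3 livers against 8 the difference was 3.70 in log2 CPM (p = 0.0242, 0.121 adjusted), and without that liver it was 1.51 (p = 0.156, exact). The liver is the one with striated muscle markers at 1812 CPM, and their part in the Serpina3m count was not tested.

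Serpina3k and Serpina3c, known from adult hepatocytes and plasma, were close to absent at this age. Serpina3k had 9 counts in Casp8 Mlkl dKO replicate 1, 1 count each in a WT and another Casp8 Mlkl dKO liver, and 0 in the other 8, where 0 allows up to 3 counts. Serpina3c had 3, 2 and 13 counts in Casp8 Tnfr1 dKO, 9, 0 and 0 in Casp8 Mlkl dKO, 0, 1 and 3 in WT, and 0 in both Tnfr1 KO livers. Both genes were thus highest among the 8 control livers in the liver with the most hepatocyte marker RNA. Summed over the 3 livers, Serpina3c had 4 counts in WT against 227 of Serpina3n, and 18 against 28957 in Casp8 Tnfr1 dKO, with upstream windows that are 92.7% identical. Serpina3k and Serpina3m share a first exon of 60 bases and 12.8% of Serpina3k's 50-base stretches, so reads of either could be uncounted or misplaced.

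The balance between Serpina3g with Serpina3f, regarded as hematopoietic members, and Serpina3n changed from liver to liver. Of the summed CPM per kb of the 7 genes, Serpina3n took 74.2, 57.7 and 45.7% in WT and 66.2 and 51.9% in Tnfr1 KO. It took 78.1% in Casp8 Mlkl dKO replicate 1 but 14.5 and 22.6% in replicates 2 and 3, in which Serpina3g took 70.3 and 63.2%. In Casp8 Tnfr1 dKO the share of Serpina3n was 47.8, 56.0 and 84.0%. Serpina3n was thus the leading gene in all livers but 2 of Casp8 Mlkl dKO, and only narrowly in WT replicate 3, where Serpina3g took 44.9%. The ratio of Serpina3f and Serpina3g together to Serpina3n was 5.68 and 3.25 in those 2 livers and 0.153 to 1.07 in the other 9. No test of the ratio was made.

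**Figure D4:**
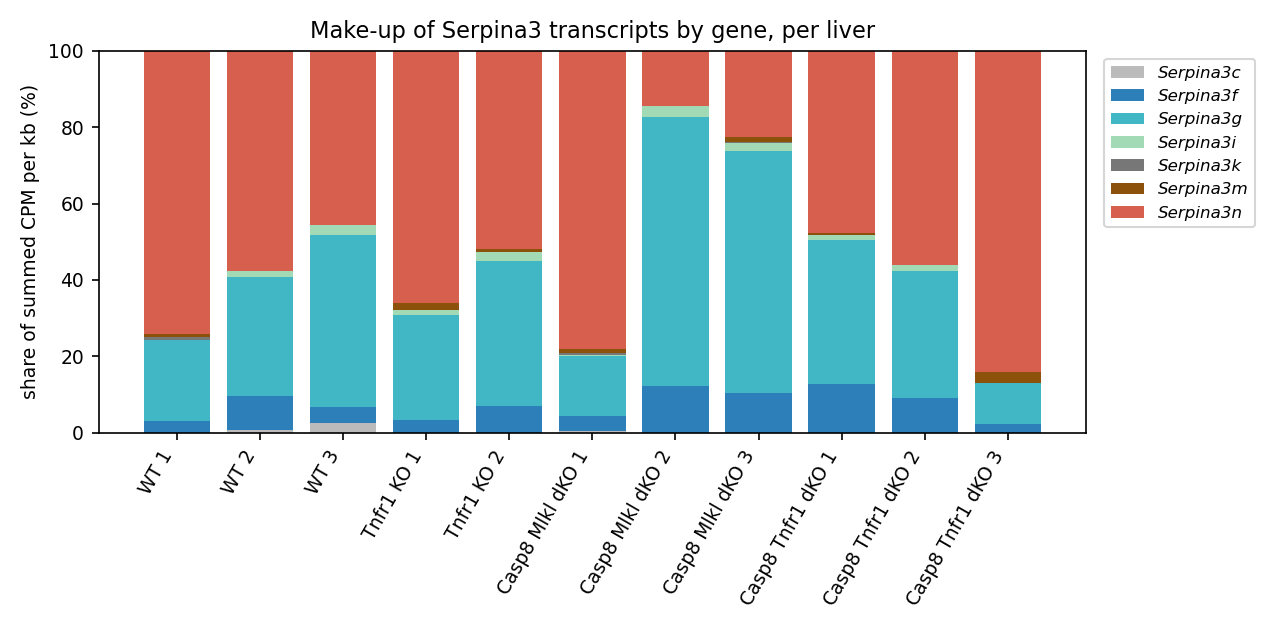
Share of each gene (percent, vertical axis) in the summed CPM per kb of the 7 Serpina3 genes in each liver. Serpina3g takes 70.3 and 63.2% in Casp8 Mlkl dKO replicates 2 and 3, whereas Serpina3n takes 78.1% in replicate 1 and 84.0% in Casp8 Tnfr1 dKO replicate 3.

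Across the 11 livers, the log2 CPM of Serpina3f, Serpina3g and Serpina3i ran in parallel (Pearson r of 0.961 to 0.989), and that of Serpina3n followed Serpina3g at r = 0.878. These correlations describe livers that fall into genotypes and share those differences, and genes are not independent replicates. The 5 genes most like Serpina3f were Irf7 (r = 0.989), Isg15, Ms4a4d, C3ar1 and Dtx3l (0.986), and those most like Serpina3g were Icam1 (0.991), Rtp4, Oas2, Irf9 and Irf7 (0.981). For Serpina3i they were Ly6a (0.985), Rnf213, Ifit1, Cd44 and Gbp4 (0.972). Irf7, Isg15, Rtp4, Oas2, Irf9, Ifit1 and Gbp4 are interferon-stimulated genes. For Serpina3n they were Tyrobp (0.996), an adaptor of myeloid receptors, then Retnlg, Chil1, Asprv1 and Ifitm2 (0.991), of which Retnlg and Chil1 are known from neutrophils. For Serpina3m they included Tbc1d23 (0.987), S1pr1, AU040320 and Gys1 (0.984), in a gene whose 11 values hold 1 far above the rest.

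**Figure D5:**
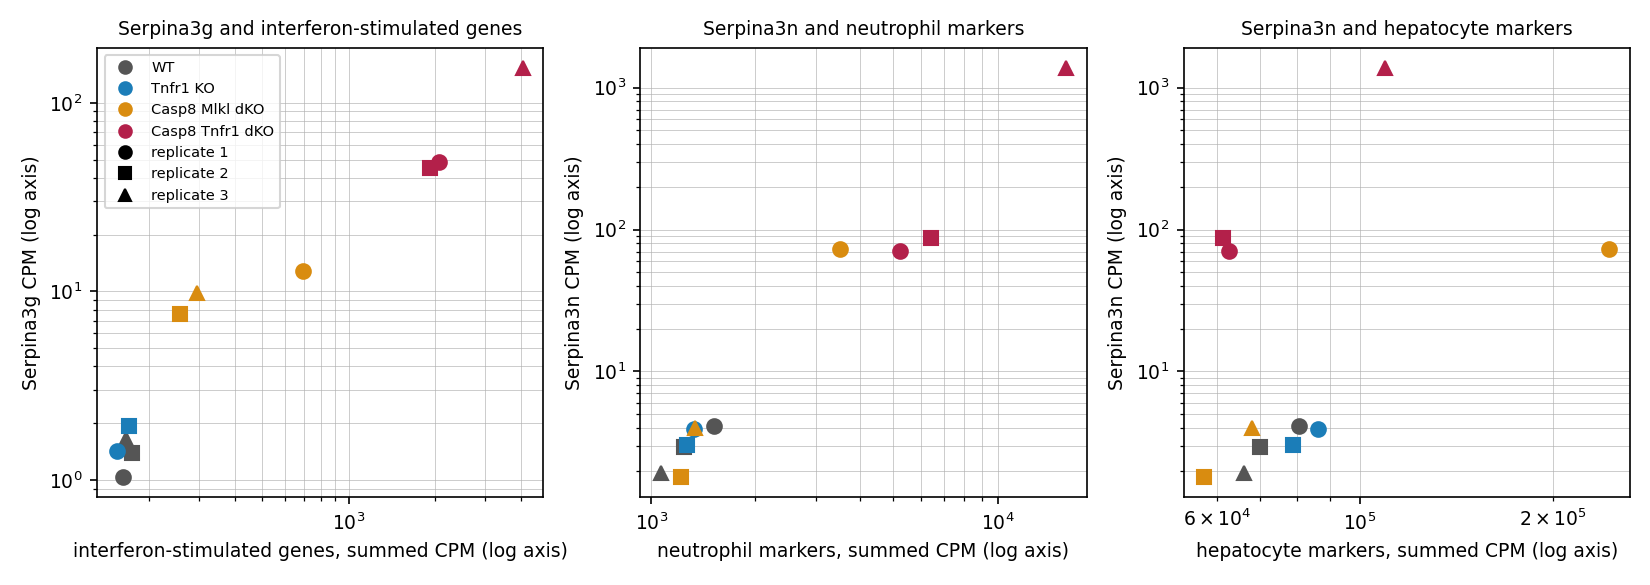
Serpina3g against the summed CPM of 22 interferon-stimulated genes, and Serpina3n against the summed CPM of 14 neutrophil and of 15 hepatocyte markers, 1 point per liver, both axes logarithmic, colors for genotype and symbols for replicate. Serpina3n follows the neutrophil markers, and the liver with the most hepatocyte marker RNA (245203 CPM) is at 72.7 CPM of Serpina3n, below the 1373 CPM of Casp8 Tnfr1 dKO replicate 3.

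Serpina3n is often counted among hepatocyte genes, and in these livers its level ran more closely with neutrophil than with hepatocyte markers. Its log2 CPM correlated with the summed neutrophil markers at r = 0.988 over 11 livers and 0.993 over the 9 livers without the 2 that stood apart, and with the summed hepatocyte markers at r = 0.429 and -0.329. Serpina3g correlated with the summed interferon-stimulated genes at r = 0.968 and 0.947, with neutrophil markers at 0.903 and 0.843, and with hepatocyte markers at 0.139 and -0.707. Serpina3n in turn correlated with the interferon-stimulated genes at 0.945 and 0.952 and with the acute phase proteins at 0.940 and 0.968. Neutrophil markers summed to 5237 to 15795 CPM in Casp8 Tnfr1 dKO, 3499 CPM in Casp8 Mlkl dKO replicate 1 and 1065 to 1519 CPM in the other 7 livers, with none of the 14 at 0 in any liver. In Casp8 Tnfr1 dKO against WT 9 of 14 neutrophil markers were higher, where 5.1% of all genes were, and 0 lower (median log2 fold change 3.27, against 0.00 over all genes tested), among them S100a8 (3.31), S100a9 (3.53) and Cebpe (1.72). Against Tnfr1 KO 1 of 14 was higher (2.05% of all genes) and against Casp8 Mlkl dKO 0 of 14 (1.54% of all). None of 15 hepatocyte markers passed in either direction (median -0.04). Whether the neutrophil markers have a part in the Serpina3n levels was not tested.

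Acute phase proteins are plasma and tissue proteins induced in inflammation, a group in which Serpina3n is usually placed. Of 19 tested, 5 were higher in Casp8 Tnfr1 dKO against WT and 0 lower (median log2 fold change 2.03): Steap4 (3.40 ± 0.49), the iron-binding Lcn2 (4.87 ± 0.78), Orm1, Saa3 (6.48 ± 1.35) and Cp. Orm1 had 116 to 517 counts in Casp8 Tnfr1 dKO and 1 count in all WT livers. Their summed level was 37623 CPM in Casp8 Mlkl dKO replicate 1 and 39935 CPM in Casp8 Tnfr1 dKO replicate 3 (the 2 livers that stood apart), and 17480 and 17805 CPM in the other Casp8 Tnfr1 dKO livers against 5631 to 9020 CPM elsewhere. Of 19, 2 were higher against Tnfr1 KO and 2 against Casp8 Mlkl dKO. Of all genes tested, 5.1% were higher against WT, 2.05% against Tnfr1 KO and 1.54% against Casp8 Mlkl dKO.

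The signals known to induce these genes, from inflammatory cytokines through STAT and NF-kB factors and from interferons, were represented by lists of their own. Of 24 tested cytokine, STAT3 and NF-kB pathway genes, 13 were higher in Casp8 Tnfr1 dKO against WT, 7 against Tnfr1 KO and 1 against Casp8 Mlkl dKO, with 0 lower (median log2 fold change 1.99, 1.75 and 1.28). The shares of all genes tested that were higher were 5.1, 2.05 and 1.54%. Among those with the smallest p against WT were the cytokine Il1b (4.25 ± 0.65) and Nfkb1 (0.67 ± 0.11). Of 22 interferon-stimulated genes, 22, 21 and 19 were higher in these comparisons, and among those with the smallest p against WT were Cxcl10 (4.38 ± 0.19), Ifit1 (6.68 ± 0.46) and Bst2 (2.87 ± 0.20). Their summed level in Casp8 Mlkl dKO was 691, 258 and 295 CPM, above the 156 to 175 CPM of WT and Tnfr1 KO, and in Casp8 Tnfr1 dKO it was 1925 to 4073 CPM. The 3 steps of Serpina3g were thus also seen in the sum of these genes. They were not particular to interferon-stimulated genes. The summed cytokine, STAT3 and NF-kB pathway genes were at 950 to 1023 CPM in WT and Tnfr1 KO. That sum was 1063 to 1338 CPM in Casp8 Mlkl dKO and 1441 to 2560 CPM in Casp8 Tnfr1 dKO.

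The proteases that serpins inhibit were read in the same livers. Of 13 tested, Ctsc, which activates the granule proteases of myeloid and killer cells, was higher in Casp8 Tnfr1 dKO against WT (1.34 ± 0.27, adjusted p = 0.0197, edgeR), and 0 were lower. Over all genes tested 5.1% were higher in that comparison, so a lone call among 13 is near that share. Among cathepsins known as targets of Serpina3g, the log2 fold change was 0.01 ± 0.19 for Ctsb, 0.48 ± 0.32 for Ctsl, 1.21 ± 0.32 for Ctss (adjusted p = 0.0563) and -0.17 ± 0.34 for Ctsh. Gzmb, the granzyme inhibited by Serpina3n, was at 0.984 CPM on average in Casp8 Tnfr1 dKO and 0.241 CPM in WT (2.03 ± 0.97, adjusted p = 0.224). The values were 0.45 ± 0.60 for Elane, 0.91 ± 0.53 for Prtn3, 0.91 ± 0.64 for Ctsg, 3.48 ± 1.36 for Cma1, -0.49 ± 0.79 for Mcpt8, 0.31 ± 0.92 for Gzma and -0.56 ± 0.51 for Klkb1, none of which passed. None of the 13 passed against Tnfr1 KO or Casp8 Mlkl dKO.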

How the data were processed

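Per the labels and the study's methods, the authors aligned reads of each liver to GRCm38 with GSNAP (2013-11-10) and kept uniquely mapped reads. The authors deposited, per gene, a raw count, a width in bases and an RPKM, which divides the count by the width and a read total; the counts were used here, the width gave CPM per kb, and RPKM values were only checked. The counting tool, its annotation release and its use of strand are not given in the sources used here, and the labels and the methods name different library kits. Gene positions came from GENCODE release M 21, whose exons give Serpina3g and Serpina3i a longer width than the deposited one.

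Genes were kept by filterByExpr (minimum count 10), which left 17243; counts were normalized by TMM, and the 4 genotypes were fitted together by edgeR 4.0.16 (glmQLFit, glmQLFTest; R 4.3.3) with no covariate. Adjusted p are Benjamini-Hochberg over all genes tested, with a threshold of 0.05. The fit was also run on simulated data with the same spread for every gene, which does not cover livers that stand apart. For log2 CPM, 2 counts were added as a prior. Levels of a gene were also permuted exactly (two-sided). Intervals and floors of 3 counts cover counting error only. Upstream sequence came from RefSeq, aligned with Biopython 1.88.

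Alternatives were DESeq2 1.42.0 (size factors, Wald test), limma-voom (3.58.1), hemoglobin genes left out of library sizes, no filter, a minimum mean of 10 counts, fits of just the 2 genotypes at issue, the replicate number as a block, a prior count of 0.5 and each liver left out. Named genes are all 7 members, the 5 genes with the highest r to each tested member, every serpin target protease and other Serpina3 row with a count, and the 3 genes of each other list with the smallest p in Casp8 Tnfr1 dKO against WT; genes outside this rule (Saa3, Cp) were named after their values were seen, and a few genes that the rule names are not reported here. Members and lists were chosen with earlier results of these data known.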

Additional observations from a re-analysis of the deposited data

How the results depend on the processing

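Serpina3f, Serpina3g and Serpina3i were called in Casp8 Tnfr1 dKO against WT under all 20 alternatives run. Against Tnfr1 KO and against Casp8 Mlkl dKO the count of 3 called members became 0 when only the 2 genotypes compared were fitted, and leaving out each liver gave 0 to 4 in both comparisons; those fits have fewer livers. Against WT the count of 4 ranged from 3 to 5. In Casp8 Mlkl dKO against WT the count of 0 became 2 with no filter on low counts (11 of 29478 genes called higher), 2 with DESeq2's Wald test (79 of 17243) and 3 without both livers that stood apart (547 of 16958), an alternative chosen after seeing the data, while leaving out each liver gave 0 to 1 (1, Serpina3g, without Casp8 Tnfr1 dKO replicate 3); the cause was not tested. DESeq2 gave no adjusted p for Serpina3m and Serpina3n. For Serpina3m against all 8 other livers, the log2 CPM difference of 3.70 ranged from 1.51 to 5.07 over the left-out livers. No called result changed its direction under the alternatives run. Whether the replicate numbers pair the livers was unclear (5 of 15 same-number pairs had r over 0.1, and 6 of 11 livers correlated best with their own number). The check cannot exclude pairing, since deviations were taken from the means of small groups. With the number as a block, 3 members were called in each Casp8 Tnfr1 dKO comparison, Serpina3n being lost against WT, and 0 in the other comparisons. Depth limits the genes with few counts: Serpina3c and Serpina3k were too scarce to test.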

Other observations

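The other Serpina3 rows were Serpina3a, Serpina3b, Serpina3h, Serpina3j and 3 pseudogenes, of which Serpina3b and Serpina3h passed the filter. Serpina3h, which lies between Serpina3g and Serpina3i, was higher in Casp8 Tnfr1 dKO than in WT, with a log2 fold change of 4.68 ± 0.60 (adjusted p = 0.00231, edgeR, Benjamini-Hochberg adjusted over all genes tested). Serpina3b had 41, 36 and 21 counts in Casp8 Tnfr1 dKO and 6 to 19 in the other livers (1.58 ± 0.41, adjusted p = 0.0540). Serpina3e-ps had 4, 3 and 0 counts in Casp8 Tnfr1 dKO and 1 count in the others, Serpina3j had 3 and 1, Serpina3a had at most 1 in a liver, Serpina3l-ps had 1 in all and Serpina3d-ps had 0.

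Serpins outside the Serpina3 cluster moved less. Of 11 other clade A serpins tested, which are mostly plasma proteins of hepatocytes, none passed in any of the 5 comparisons by edgeR. Those with the smallest p in Casp8 Tnfr1 dKO against WT were Serpina10 (0.62 ± 0.20, adjusted p = 0.104), Serpina12 (0.93 ± 0.79) and Serpina1c (-0.56 ± 0.62). Of 16 serpins of other clades, Serpinb1a, an inhibitor of neutrophil elastase, was higher (2.12 ± 0.21, adjusted p = 0.000641), as was Serpinb8 (2.12 ± 0.51, adjusted p = 0.0412). In Casp8 Tnfr1 dKO against WT 5.1% of all genes tested were higher.

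Among the other lists, 0 of 8 glucocorticoid response genes passed in Casp8 Tnfr1 dKO against WT, and the lowest p were those of Sgk1 (1.10 ± 0.31), Tat (1.96 ± 0.63) and Tsc22d3 (0.92 ± 0.41). Of 15 macrophage markers, Cd68 was higher (0.90 ± 0.20) and Clec4f (fell by 4.23 on the log2 scale) and Marco (fell by 1.51) were lower. Of 10 endothelial markers, Pecam1 was higher (1.30 ± 0.32). Among all genes tested, 5.1% were higher and 0.702% lower in this comparison. None passed of 4 tested T and NK cell markers, 12 erythroid markers, 7 hemoglobin genes and 14 striated muscle markers, the last with a median log2 fold change of 5.98 that came with 1 liver.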
